A study of Mus musculus with 8 samples.

Results

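*Dgki*, *Sdk2*, *Nav2*, *Dlgap3*, *Fstl4*, *Mdga1* and *Rap1gap2* are 7 mouse genes of the kind best known from neurons. They were chosen from these data because they collected many sites of increased chromatin accessibility in hearts with *Chd4* knocked out in cardiomyocytes. They were selected on the measured peak lists: each was the gene with the nearest transcription start site (TSS), among annotated genes of any type, for 8 or more peaks with higher signal in the mutant. Of the 12991 peaks higher in mutant hearts (gained peaks), 75 belonged to the 7 genes, and of the 2745 peaks higher in control hearts (lost peaks), 2 did. A peak belonged to a gene if its nearest protein-coding TSS was that gene's or if it lay within 10 kb of the gene body. The annotation holds 21951 protein-coding genes. Because the number of gained peaks chose the genes, counts, scores and the excess of gained over lost peaks are given below as descriptions with no test.

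Accessibility was assayed by ATAC-seq, a method that cuts and tags open DNA with the Tn5 transposase, in whole hearts of mouse embryos at day E10.5 of development. The design had 4 WT and 4 *Chd4-CMko* samples, and several hearts of one genotype, from embryos of either sex, were pooled for each. *Chd4-CMko* hearts are conditional knockouts of *Chd4*, the helicase subunit of the NuRD repressor complex, and in the study's cross the floxed alleles (*Chd4* fl/fl and fl/+) were removed by *Tnnt2* Cre, which acts in cardiomyocytes, so that the other cells of the heart keep CHD4. WT samples were control littermates whose *Chd4* and Cre alleles are not given in the labels. Each genotype has a deposited list of the peaks with higher signal in it (2 lists in all), and a peak carries one score but no value per sample and no read depth, so no replicate error or p-value between genotypes is given. In whole hearts, a peak gained in some cells and a larger share of cells that already carried it cannot be told apart, and the labelled tissue could not be checked on marker levels because sites that did not differ are not in the lists.

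The proteins of these genes act at cell contacts, at synapses and in signalling. *Sdk2* (sidekick 2) and *Mdga1* encode immunoglobulin superfamily proteins of the cell surface. Sidekicks bind like to like and guide synaptic layering in the retina, and MDGA1 is a lipid-anchored protein that binds neuroligin-2 and keeps neurexin away from it. *Fstl4* encodes a secreted follistatin-like protein. *Dlgap3* encodes SAPAP3, a scaffold of excitatory synapses that links PSD-95 to SHANK proteins. *Dgki* encodes a diacylglycerol kinase, which turns diacylglycerol into phosphatidic acid, and *Rap1gap2* a GTPase-activating protein that switches off the small GTPase Rap1. *Nav2* (neuron navigator 2) encodes a large cytoskeleton-associated protein needed for axon outgrowth. Accessible sites in introns and upstream of such long genes often act as enhancers, and those at a TSS as promoters. Whether any site below acts in that way was not measured.

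The highest-scoring gained peak outside exons is shown first for each gene but *Dlgap3*, because these peaks lead the description of each gene. All are 151 bp long, in mm10 (GRCm38) coordinates, and are written 5′ to 3′ on the coding strand of the gene. Capitals mark matches, on either strand, to short consensus strings: CCAAT (bound by NF-Y), GGGCGG (the GC-box, bound by SP factors), CCACCC (bound by KLF factors), AGATAA (bound by GATA factors), ACATTCC (bound by TEAD factors), CAGCTG (an E-box of muscle and neural bHLH factors), CACGTG (a further E-box of other bHLH factors), TGANTCA (bound by AP-1) and, by name only, the MEF2, CTCF and REST sites. The share of peaks with each string is given further on for the other gained and the lost peaks.
*Sdk2* chr11:113990647-113990797, minus strand, intron: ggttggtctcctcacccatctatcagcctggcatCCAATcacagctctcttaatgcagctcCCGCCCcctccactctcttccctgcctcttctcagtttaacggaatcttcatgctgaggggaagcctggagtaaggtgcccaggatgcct
*Mdga1* chr17:29841793-29841943, minus strand, internal TSS: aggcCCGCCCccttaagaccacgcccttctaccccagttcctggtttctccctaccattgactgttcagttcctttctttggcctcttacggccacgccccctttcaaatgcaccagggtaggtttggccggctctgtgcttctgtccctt
*Fstl4* chr11:52809786-52809936, plus strand, intron: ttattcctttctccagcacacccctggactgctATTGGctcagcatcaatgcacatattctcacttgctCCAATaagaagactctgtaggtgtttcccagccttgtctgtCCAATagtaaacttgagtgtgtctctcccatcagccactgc
*Dgki* chr6:37209648-37209798, minus strand, intron: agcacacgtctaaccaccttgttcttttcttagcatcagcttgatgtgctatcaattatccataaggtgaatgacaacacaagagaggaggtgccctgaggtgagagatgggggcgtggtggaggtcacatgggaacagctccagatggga
*Rap1gap2* chr11:74524208-74524358, minus strand, near an internal TSS: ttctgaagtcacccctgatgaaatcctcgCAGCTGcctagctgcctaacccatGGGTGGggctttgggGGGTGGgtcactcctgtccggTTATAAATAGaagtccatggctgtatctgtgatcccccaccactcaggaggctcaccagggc
*Nav2* chr7:49429038-49429188, plus strand, intron: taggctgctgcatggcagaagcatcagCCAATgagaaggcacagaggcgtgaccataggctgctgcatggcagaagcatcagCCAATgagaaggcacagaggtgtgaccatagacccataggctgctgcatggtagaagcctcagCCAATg

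These sequences differ from one another in composition. The *Nav2* peak repeats itself: set against its own sequence at a shift of 55 bp, 67 of 96 bases were the same, and its 3 CCAAT matches lie 55 and 63 bp apart. The *Fstl4* peak also held 3 CCAAT matches, 36 and 41 bp apart, in a sequence with no CpG, and the *Dgki* peak held none of the strings. Peaks with 3 or more CCAAT matches numbered 3 of the 75 (4.00%, Wilson 95% interval 1.37 to 11.1%), beside 3.34% of the 12916 other gained peaks and 0.0364% of lost peaks. Here and below, intervals cover counting error only, and peaks of one gene are not independent of each other.

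Each gene collected between 8 and 15 gained peaks. *Nav2* had 15, *Sdk2* 13, *Mdga1* 12, *Dgki* 10, *Fstl4* 9, and *Dlgap3* and *Rap1gap2* had 8 each. By nearest TSS of any gene type, the measure that chose them, *Dgki* and *Sdk2* had 10, *Nav2* 9 and the other 4 genes 8, a count reached by 10 protein-coding genes (0.0456% of them). The other 3 genes at or above that count were *Cacna1a* and *Cdh23* with 9 and *Rreb1* with 8. Just outside the threshold, with 7 each, were *Cdh26*, *Ephb2*, *Glis1*, *Myo16*, *Ntm*, *Pde4d*, *Rbfox3*, *Rnf220* and *Sez6l*. By nearest protein-coding TSS, 104 protein-coding genes (0.474%) had 8 or more, among them all 7, and *Serp2* and *Zfhx3* shared the highest count of 15 with *Nav2*. The 7 genes are therefore a named choice among more genes of this kind, and nothing below is shown to be particular to them.

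The genes are long, and length alone gives a gene more room for peaks. Their bodies measured 701 kb (*Nav2*), 454 kb (*Dgki*), 424 kb (*Fstl4*), 291 kb (*Sdk2*), 228 kb (*Rap1gap2*), 142 kb (*Mdga1*) and 67.8 kb (*Dlgap3*). Beside protein-coding genes whose length was within a factor of 1.25 of their own, each stood above the 90th percentile for gained peaks, which lay between 3 peaks (genes as long as *Dlgap3*) and 7 peaks (genes as long as *Nav2*). The median gene of those lengths had 1 to 2 gained peaks, and 96.7% (*Rap1gap2*) to 99.8% (*Mdga1*) of them had fewer than the gene compared. A gained peak was assigned to 37.4% of all protein-coding genes. Per Mb of territory, the stretch of genome nearer to a gene's TSSs than to those of any other protein-coding gene, the 7 genes together carried 27.9 gained peaks, against 4.77 over the genome. *Dlgap3*, the shortest, was the densest with 105 per Mb, and *Fstl4* the sparsest with 18.4 per Mb.

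**Figure D1:**
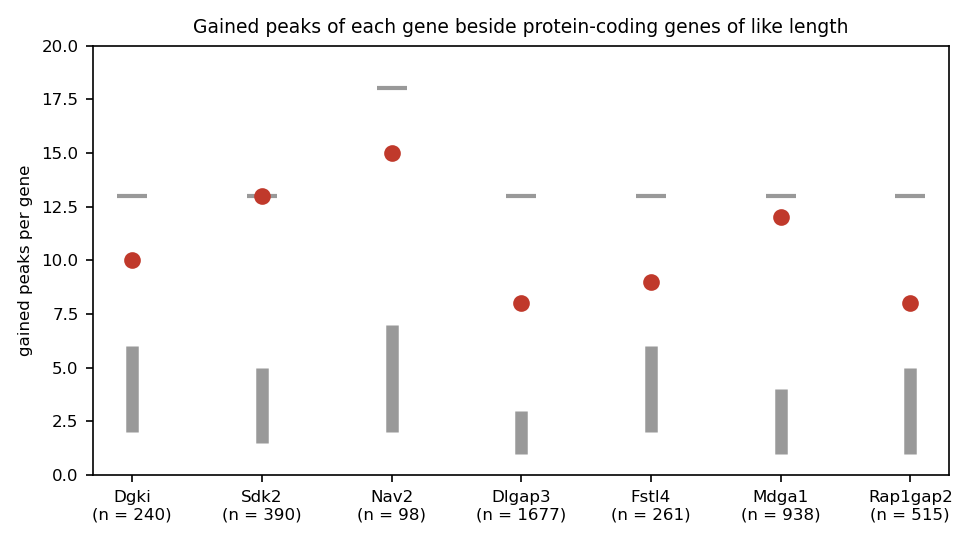
Gained peaks of each of the 7 genes (red circles) beside protein-coding genes of like length. The number under each name is how many genes had a length within a factor of 1.25, the grey bar runs from their median to their 90th percentile and the grey dash is their highest count; each red circle lies above its grey bar, as the choice of the genes requires.

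Along the genes, the gained peaks were mostly intronic. Introns held 52 of the 75 peaks (69.3%, 58.2 to 78.6%), beside 31.2% of other gained peaks (30.4 to 32.0%), while 9 were intergenic (12.0%, 6.44 to 21.3%, against 41.8%). With peaks assigned by nearest protein-coding TSS only, the intronic share was 70.3%. The other gained peaks were not matched for gene length, and peaks tied to long genes have more intron to lie in, so these shares by position are a description and not particular to the 7 genes. Promoter peaks, within 3 kb of the start of any annotated transcript of a protein-coding gene, numbered 11 (14.7%, 8.39 to 24.4%, against 22.9%), and 3 peaks lay in exons (4.00%, against 4.03%). Every gene but *Fstl4* had a promoter peak, where 11.6% of all protein-coding genes have one, and the gene's own count chose it. Of the 63 peaks with their centre inside a gene body, 23 (36.5%, 25.7 to 48.9%) lay in the first 20% of the gene from the 5′ end, and *Dgki* alone gave 6 of these. The median distance to the nearest protein-coding TSS was 20.7 kb, against 15.5 kb for other gained peaks, and 20 of the 75 peaks lay over 50 kb from any such TSS (26.7%, against 26.2%).

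**Figure D2:**
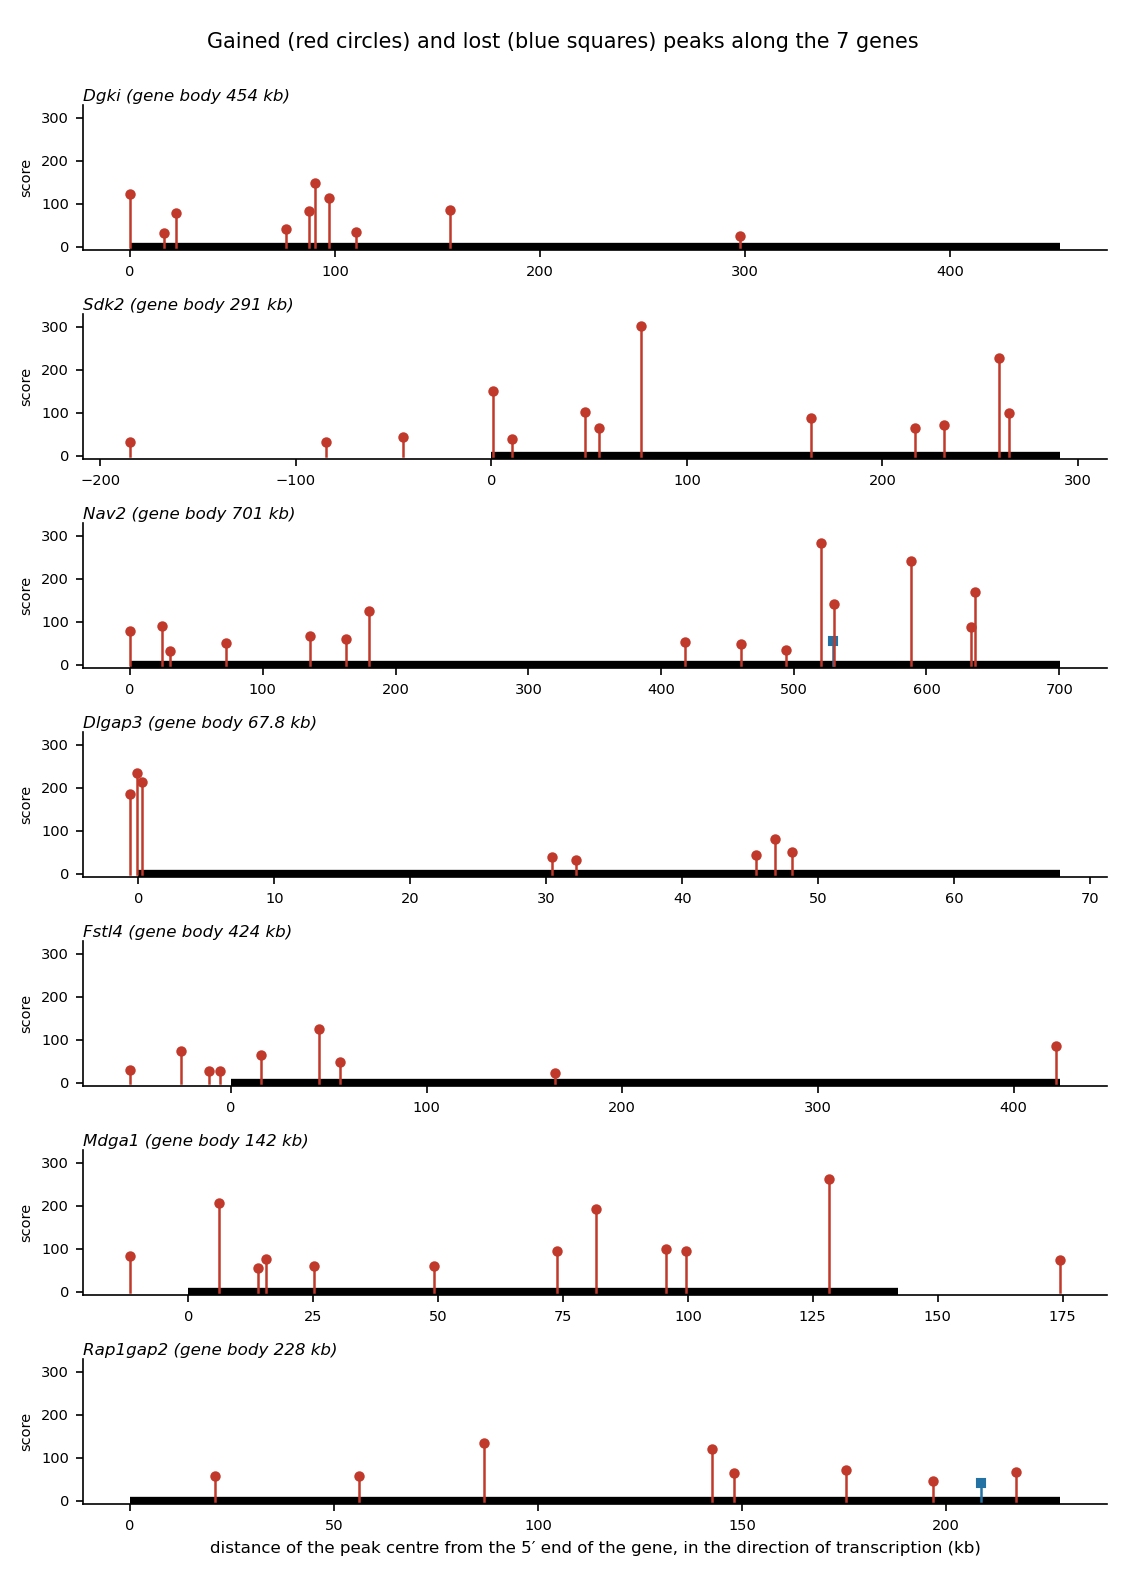
Position and deposited score of every gained (red circles) and lost (blue squares) peak of the 7 genes, by distance in kb from the 5′ end of the gene in the direction of transcription, with the gene body as a black bar and negative distances upstream. Peaks of *Dgki* gather in its 5′ part, 3 tall peaks of *Dlgap3* stand at its start, and the 2 lost peaks, whose scores are on the scale of another list, lie in *Nav2* and *Rap1gap2*.

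The peak score is the authors' value for a peak, on a scale that is not stated, and it was compared within the gained list only. It was not read as the size of the change between genotypes. The 75 peaks had a median score of 73.0 (22 to 300.5), beside 62.0 in other gained peaks. Above the median of the whole gained list (62.5) lay 46 of the 75 (61.3%, 50 to 71.5%), above its upper quartile (110.0) lay 20 and below its lower quartile (40.5) lay 14. The genes therefore mixed sites of high and low score. The 5 highest scores were 300.5 in *Sdk2*, 282.0 and 240.5 in *Nav2*, 262.0 in *Mdga1* and 234.5 in *Dlgap3*. Even the highest of them was exceeded by 347 other gained peaks. *Fstl4* had the lowest median, 48.0, and *Mdga1* the highest, 89.0, and neither *Mdga1* nor *Rap1gap2* had a peak below the lower quartile of the list. The 9 intergenic peaks had a median of 32.0 (27.5 to 83.0) against 52.0 in other intergenic gained peaks, and 3 of them, 1 of *Fstl4* and 2 of *Mdga1*, lay above the median of the list.

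**Figure D3:**
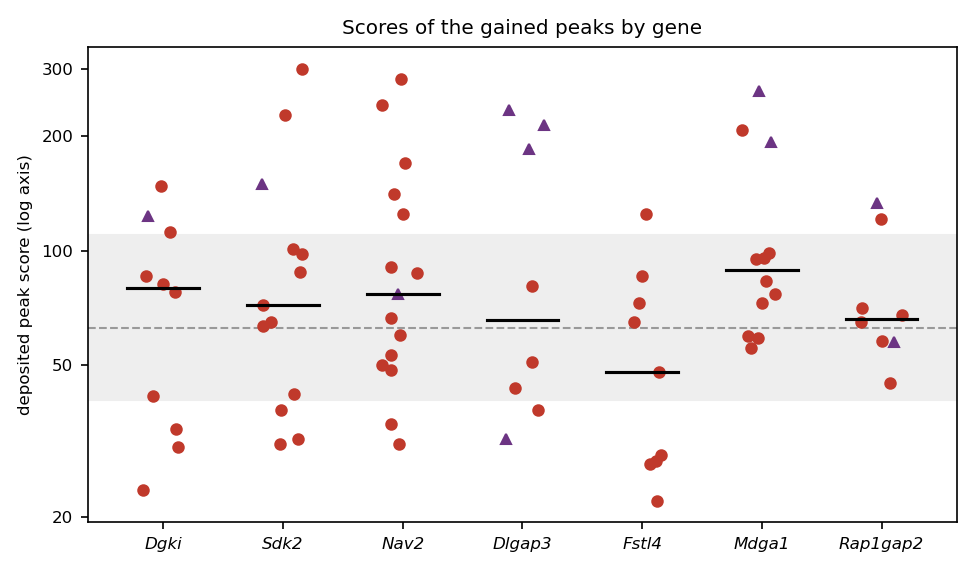
Deposited score (log axis) of each gained peak by gene, with promoter peaks as purple triangles, all other peaks as red circles and the median of each gene as a black bar. The dashed line and the grey band are the median (62.5) and the quartiles (40.5 and 110.0) of the whole gained list; *Mdga1* and *Rap1gap2* have no peak below the band and *Fstl4* has 1 above it.

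Among the cell-surface genes, *Sdk2* (chr11:113776374-114067046, minus strand) had its highest-scoring site deep in the gene. The peak of 300.5 lay 76.3 kb from the 5′ end in the first intron, which spans 123 kb, and 3 more peaks of that intron scored 38.0, 101.0 and 65.0. A second tall peak (226.5) lay in intron 37, 260 kb from the 5′ end and 3140 bp from an annotated internal start, with a neighbour of 98.0 in intron 39. The peak nearest to the main start scored 149.5, with a GC content of 72.8%. In contrast, 3 peaks upstream of the gene, at 45.3, 84.4 and 185 kb, scored 42.0, 31.0 and 32.0. *Sdk2* had no lost peak. Introns are numbered here in the protein-coding transcript that spans the most genome.

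*Mdga1* (chr17:29827949-29970087, minus strand) showed gained peaks at internal starts and not at its outermost one. The peak of 262.0 lay 553 bp from an internal start 128 kb into the gene. The peak of 192.5, with a GC content of 83.4% and 22 CpG, lay 255 bp from a start 81.4 kb into the gene. It overlapped exon 1 of the protein-coding transcript that spans the most genome, and the outermost start lay upstream of that transcript. No gained peak lay within 3 kb of the 5′ end itself. The nearest one inside the gene, at 6.13 kb, scored 207.0, and 5 further peaks between it and the internal start at 81.4 kb scored 55.5 to 95.5. Past that start, 2 peaks in its first intron scored 98.5 and 95. One peak lay 11.7 kb upstream (83.0) and one beyond the 3′ end (73.0). *Fstl4* (chr11:52764634-53188538, plus strand), the gene of the secreted protein, has a single annotated start and no gained peak within 3 kb of it. Its nearest gained peak lay 5.71 kb upstream with a score of 27.5, and the other upstream peaks, at 11.2, 25.2 and 51.5 kb, scored 28.0, 73.0 and 29.0. The tallest *Fstl4* peak (125.0) lay 45.2 kb into the gene in intron 2. A peak of 85.5 in the last exon was nearest to a start of the neighbouring gene *Hspa4* and counted only because it lay in the gene body.

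*Dlgap3* (chr4:127169204-127237022, plus strand), the gene of the synaptic scaffold, had its highest scores at the start. There, 3 peaks centred at 607 and 118 bp upstream and 311 bp downstream of the 5′ end scored 184.5, 234.5 and 213.5, and their GC content was 67.5%, 85.4% and 81.5%. All 3 held a GC-box. The other 5 peaks, 30.4 to 48.0 kb into the gene, scored 32.0 to 80.5 and had a GC content of 47.7 to 60.9%. The lowest score at the start was thus more than any score in the body. This contrast between start and body was not general, since the highest score of *Sdk2*, *Nav2* and *Dgki* lay outside promoters although each had a promoter peak. Merging peaks within 1 kb of each other joins the 3 start peaks into 1 region.

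Of the signalling genes, *Dgki* (chr6:36846022-37300184, minus strand) had 7 of its 10 gained peaks in its first intron, which covers 33.0% of the gene. A cluster of 3 peaks between 87.1 and 97.0 kb from the 5′ end scored 81.5, 148.0 and 112.0, and the other 4 peaks of the intron scored 30.5 to 78.0. The promoter peak, 4 bp from an annotated start, scored 123.0. Past the first intron there were 2 peaks, of 85.5 in intron 2 and 23.5 in intron 19, and the 3′ part of the gene beyond 298 kb held none. *Rap1gap2* (chr11:74383356-74610915, minus strand) had its peaks spread over the gene, with gaps of 5.56 to 55.9 kb between neighbours. Its highest score, 133.0, lay 1532 bp from an internal start, and the next, 121.0, in intron 3. The peak at the start of the longest coding transcript, 7 bp from it, scored 57.5 with a GC content of 76.2% and 22 CpG.

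*Nav2* (chr7:48908716-49610090, plus strand) has 17 annotated starts and held 15 gained peaks in 2 stretches. The first 7 lay within 180 kb of the 5′ end and scored 31.0 to 124.5, among them a promoter peak of 77.0 centred 59 bp upstream of the outermost start. That start lay upstream of the protein-coding transcript that spans the most genome. After a gap of 239 kb with no gained peak, 8 peaks lay between 418 and 636 kb. The scores of these 8 were 53.0, 48.5, 35.0, 282.0, 141.0, 240.5, 87.5 and 169.5 in order along the gene. The taller sites were thus in the second stretch, from 520 kb on, far from the outermost start but at most 46.4 kb from an internal one.

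Lost peaks were few. The 7 genes held 75 gained and 2 lost peaks, so that 97.4% of their listed peaks were gained (91.0 to 99.3%), beside 82.6% over both lists, a share that the choice of the genes raises. Of the 7 genes, 2 had a lost peak, where 10.8% of all protein-coding genes had one and where, among genes of like length, the share ran from 17.7% (as long as *Dlgap3*) to 50.4% (as long as *Dgki*). The lost peak of *Nav2*, with a score of 54.0 in its own list, lay in intron 7 only 1192 bp from the gained peak of 141.0. The lost peak of *Rap1gap2*, with a score of 41.4, lay in intron 17 at 8.59 kb from a gained peak of 67.5. Both lost sites and the gained neighbour in *Nav2* are printed because sites of opposite change lie close together there. Capitals mark the same strings as above.
*Nav2* lost chr7:49437964-49438114, plus strand: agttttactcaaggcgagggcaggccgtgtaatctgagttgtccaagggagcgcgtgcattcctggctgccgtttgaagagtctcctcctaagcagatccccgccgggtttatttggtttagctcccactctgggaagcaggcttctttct
*Nav2* gained chr7:49439156-49439306, plus strand: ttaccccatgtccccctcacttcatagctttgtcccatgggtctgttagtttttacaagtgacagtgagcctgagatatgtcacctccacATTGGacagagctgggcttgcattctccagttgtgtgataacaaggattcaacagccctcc
*Rap1gap2* lost chr11:74402255-74402405, minus strand: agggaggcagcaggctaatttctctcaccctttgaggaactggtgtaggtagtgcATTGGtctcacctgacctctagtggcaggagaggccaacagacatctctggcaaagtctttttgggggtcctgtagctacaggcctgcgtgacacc

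In *Nav2* the lost site had a GC content of 54.3% and 7 CpG, and its gained neighbour 48.3% and no CpG. The lost site of *Rap1gap2* had a GC content of 54.3% and 1 CpG.

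GC content played no part in the choice of the genes. The 75 gained peaks had a GC content of 56.8% ± 8.39 (mean ± SD over peaks, 45.0 to 85.4%), and the other gained peaks 56.6% ± 8.55. The difference of 0.190 percentage points had a 95% interval of -1.71 to 2.09, which includes 0. Within introns the means were 54.5% and 54.1% (difference 0.334, -1.10 to 1.77), and at promoters 68.3% and 64.4% (difference 3.85, -3.91 to 11.6, with only 11 peaks). By gene, the mean ran from 52.0% ± 3.75 in *Nav2* (n = 15 peaks) to 64.3% ± 13.2 in *Dlgap3* (n = 8 peaks). *Nav2* was the most even, with all its peaks between 45.7% and 58.9%. *Dlgap3* was the most divided, from 47.7% to 85.4%.

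The peaks were more GC-rich than the DNA around them. Against 1 kb on each side, the 75 peaks were higher by 6.69 ± 5.52 percentage points (mean ± SD over peaks), and the other gained peaks by 8.35 ± 6.43. The excess of the 75 peaks was thus the smaller one. Within introns it was 5.97 against 7.30 points, and no interval was computed for these differences. In 67 of the 75 peaks (89.3%) the peak exceeded its surroundings, against 92.4% of other gained peaks. The mean difference was above 0 in each of the 7 genes, from 4.59 points in *Nav2* to 8.87 in *Fstl4*, and all peaks of *Dgki*, *Fstl4* and *Rap1gap2* exceeded their surroundings. Of the 8 exceptions, *Sdk2* and *Nav2* had 3 each and *Dlgap3* and *Mdga1* 1 each, and the *Mdga1* exception was its tallest peak. Repeats took up 10.2% of the bases of the 75 peaks on average, against 16.8% in other gained peaks, and 1 of the 75 peaks (1.33%) was repeat over 50% or more of its length, against 10.2%. CpG dinucleotides were at a median of 0.599 of the number expected from base composition in the 11 promoter peaks, above the 0.469 of other gained promoter peaks. In the 52 intronic peaks the median was 0.174, close to the 0.186 of other gained intronic peaks.

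**Figure D4:**
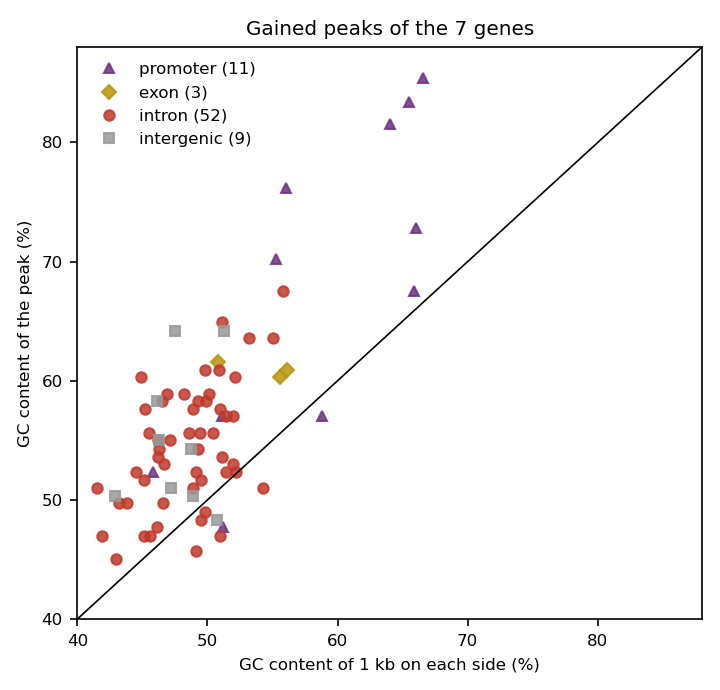
GC content of each of the 75 gained peaks against the GC content of 1 kb on each side, by class of position (number of peaks in the legend), with a line where both are equal. Of the 75 points, 67 lie above the line, and the points above 70% on the vertical axis are promoter peaks.

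Of the 75 peaks, 26 held none of the consensus strings (34.7%, 24.9 to 45.9%), a larger share than the 22.2% of other gained peaks, while the interval of each single string's share included the share of other gained peaks. Both sets differ in their shares of intronic and promoter peaks, for which these comparisons were not matched. CCAAT was found in 19 of the 75 peaks (25.3%, 16.9 to 36.2%), beside 29.3% of other gained and 12.4% of lost peaks, and in all 7 genes. CCACCC was found in 19 (25.3%, 16.9 to 36.2%), beside 27.5% and 10.2%. The GC-box was found in 12 (16.0%, 9.40 to 25.9%), beside 22.5% and 2.95%, and 7 of these 12 were promoter peaks. For these 3 strings the interval of the 7 genes' share includes the share of other gained peaks and lies above that of lost peaks. Lost peaks were also poorer in GC, with a mean of 50.4% in the 2743 outside the 7 genes. Base composition was not matched in this comparison. The GATA string was in 7 peaks (9.33%, against 11.2% and 12.2%), the TEAD string in 2 (2.67%, against 3.76% and 7.43%) and the AP-1 string in 1 (1.33%, against 5.10% and 9.0%). CAGCTG was in 10 peaks (13.3%, against 13.2% and 15.4%), of which 5 were in *Nav2*, and CACGTG in 2 (2.67%, against 4.8% and 1.68%). The MEF2 site was in 3 peaks (4.00%, against 3.25% and 1.46%). The CTCF site was in none of the 75, beside 0.286% of other gained and 2.48% of lost peaks, and the REST site in none, beside 0.0232% and 0.0364%. A match to a string is not evidence of binding.

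**Figure D5:**
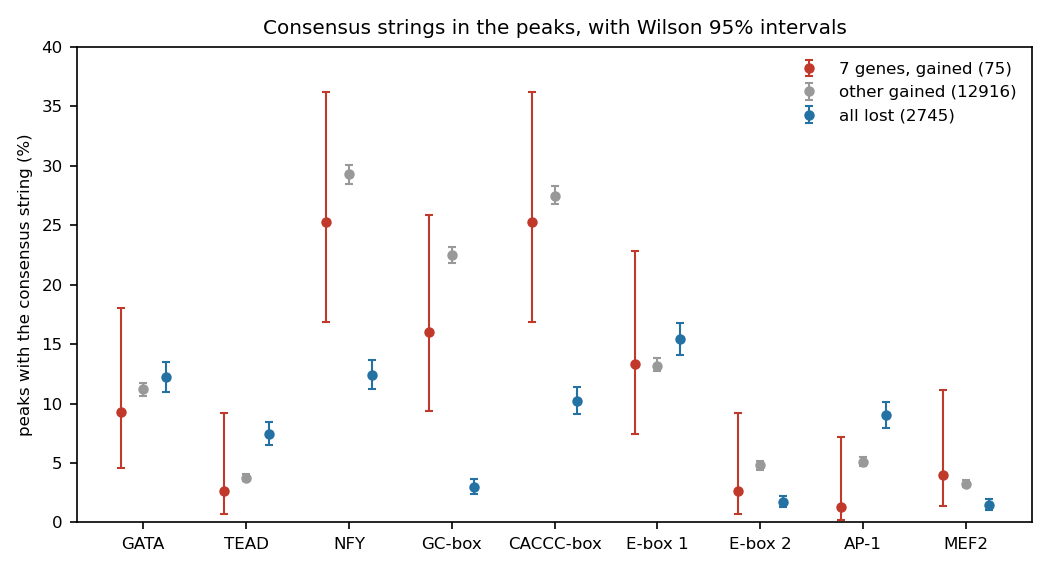
Share of peaks holding each consensus string, for the 75 gained peaks of the 7 genes (red), the 12916 other gained peaks (grey) and all 2745 lost peaks (blue), with Wilson 95% intervals. E-box 1 is CAGCTG and E-box 2 is CACGTG; every red interval includes the grey point.

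Several strings came together in a few intronic peaks. The most kinds in one peak were 4, in an *Fstl4* peak in intron 2 (score 65.0), where the GATA and TEAD strings overlap, and in a *Nav2* peak 163 kb into the gene (score 60). Both are shown with matches in capitals.
*Fstl4* chr11:52780057-52780207, plus strand: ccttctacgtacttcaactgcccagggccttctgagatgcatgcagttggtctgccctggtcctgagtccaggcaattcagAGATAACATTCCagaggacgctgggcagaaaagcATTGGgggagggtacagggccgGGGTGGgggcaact
*Nav2* chr7:49071459-49071609, plus strand: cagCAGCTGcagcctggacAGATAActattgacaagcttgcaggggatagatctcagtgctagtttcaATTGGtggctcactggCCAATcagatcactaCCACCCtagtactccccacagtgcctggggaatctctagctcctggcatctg

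Gained and lost peaks were also counted at the relatives of the 7 genes. That the chosen genes had more gained peaks than their relatives follows from the choice, and the values are a description. Of 27 other members of their families, 18 had at least 1 gained peak (66.7%, 47.8 to 81.4%, beside 37.4% of all protein-coding genes) and 7 had a lost peak (beside 10.8%). The relatives were not matched to all protein-coding genes for length, and longer genes have more room for peaks. None of the 27 reached 8 gained peaks, a count that 0.569% of all protein-coding genes reached under the same rule. *Sdk1*, the other sidekick, had 4 gained and 4 lost peaks over 974 kb, where *Sdk2* had 13 and 0 over 291 kb. Among the diacylglycerol kinases, *Dgkg* had 6 gained and 2 lost peaks, *Dgkz* 6 gained and *Dgkh* 3 gained. Of the other SAPAP scaffold genes, *Dlgap2* had 4 gained peaks, *Dlgap4* 3 and *Dlgap1* 2 with 1 lost, and *Fst*, encoding follistatin, had 3. *Rap1gap* had 4 gained peaks, all within 3 kb of a start, and *Sipa1l2*, of the same group of Rap regulators, had 5 gained and 2 lost. In that group *Sipa1l1* and *Sipa1l3* had 3 gained and 1 lost each. Of the navigators, *Nav1* had 2 gained and 1 lost and *Nav3* 2 gained. Relatives with no gained peak included the long genes *Dgkb* (817 kb), *Mdga2* (756 kb) and *Fstl5* (636 kb).

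Partners at the synapse and markers of the cell types a heart could hold were counted from lists. Of 35 synaptic genes, 24 had a gained peak (68.6%, 52.0 to 81.4%, beside 37.4% of all protein-coding genes), 10 had a lost peak (beside 10.8%) and 0 had 8 or more gained peaks (beside 0.569%). *Shank1*, whose protein binds SAPAP3, had 6 gained peaks, 4 of them at a start. *Nrxn3* had 5 gained and 2 lost peaks, and *Nlgn1* 1 gained and 2 lost. A gained peak was assigned to 8 of 10 neuron marker genes (*Rbfox3* had 8 and *Nefm* 6), to 6 of 8 markers of neural crest and autonomic ganglion and to 7 of 10 cardiomyocyte markers. These shares of 80%, 75% and 70%, beside 37.4% of all protein-coding genes, had Wilson intervals that overlapped widely (49.0 to 94.3%, 40.9 to 92.9% and 39.7 to 89.2%). A lost peak was assigned to 3 of the neuron markers (*Rbfox3*, *Map2* and *Nefl*), 1 of the neural crest and autonomic markers and 0 of the cardiomyocyte markers, beside 10.8% of all protein-coding genes. Gene length was not matched in these counts, and whether any cell type took part in the peaks of the 7 genes was not tested.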

How the data were processed

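ATAC-seq peaks of 4 WT and 4 *Chd4-CMko* heart samples were used. Per the labels and the study's methods, BWA-MEM aligned the reads to mm10, HOMER (4.10.3) called the peaks, a 2-fold cutoff defined differential ones and ChIPseeker (1.20.0) annotated them. How reads were filtered, whether duplicates were kept, whether the Tn5 offset was applied and how replicates were merged is not given in the sources used here, and each of these choices can change which peaks pass. The deposited score of each peak is the authors' value. Its scale is not stated, so the lists were not compared by score.

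Peaks were placed on GENCODE M21 genes and GRCm38 sequence with Python 3.11.15, numpy 2.4.6, scipy 1.17.1 and matplotlib 3.10.9, tested on simulated data. Nearest TSSs were taken from all transcripts of protein-coding genes. Shares have Wilson 95% intervals, and differences in mean GC content normal 95% intervals over peaks. Strings were searched without mismatch on both strands. Sequences are printed for a choice of peaks, and 2 that belonged to that choice are not reported here.

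The members and lists were chosen with earlier results of these data known. Named genes were the 7, protein-coding genes near the threshold of 8, and family or listed genes with 3 or more gained peaks or any lost peak. Since 104 genes reached 8 by nearest protein-coding TSS, of these only genes with the highest count were named, and listed genes were named by example. Some relatives with fewer or no gained peaks were named as well. Alternatives covered the assignment of peaks, score, repeats, merging, each gene left out, the promoter window, the peaks compared, mismatches and the territory.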

Additional observations from a re-analysis of the deposited data

How the results depend on the processing

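Of 117 recomputed values of the main results (counts, shares by position, GC content and density), 111 stayed within 1.5 times the count or density, or within the interval of the share or mean. Keeping only peaks at or above the median score of their list left 46 of the 75 gained peaks and 17.0 instead of 27.9 per Mb, since fewer peaks enter. Counting only peaks inside gene bodies raised the intronic share to 81.2%, since upstream peaks drop out. Against other intronic gained peaks alone, the GC content of all 75 peaks was higher by 2.69 percentage points, since promoter peaks stay on one side only, and the like-for-like intronic difference was 0.334. Of 228 recomputed values of single genes and strings and of the median score, 20 moved further. Allowing 1 mismatch raised the share of the 75 peaks with CCAAT from 25.3% to 96.0%, with CCACCC to 89.3%, with the GC-box to 74.7%, with CAGCTG to 70.7%, with the GATA string from 9.33% to 58.7%, with CACGTG and the AP-1 string to 45.3% each and with the TEAD string to 34.7%. In the upper part by score the GATA share was 4.35%, and the single AP-1 match dropped out there, near or inside gene bodies only and without *Fstl4*. That part kept 6 peaks of *Dgki*, 9 of *Nav2*, 4 of *Dlgap3*, 4 of *Fstl4* and 5 of *Rap1gap2*. *Fstl4* had 5 peaks inside its body, and *Nav2* had 9 by nearest TSS of any gene. Leaving out each gene in turn gave 1 to 2 lost peaks, with 1 left without *Nav2* or without *Rap1gap2*. No paired analysis was possible because the lists hold no value per sample. Without depth or values per sample, a peak shared by all mutant samples and one carried by a single sample look the same.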

Other observations

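The count that chose the genes depends on which annotated genes compete for a peak. By nearest TSS of any gene type, *Nav2* had 9 gained peaks and by nearest protein-coding TSS 15, because noncoding genes such as *Gm18559* and *Gm45207* start within or beside it. The same change took *Mdga1* from 8 to 12 and *Sdk2* from 10 to 13, and left *Dgki* at 10, *Dlgap3* at 8, *Fstl4* at 8 and *Rap1gap2* at 8. Gained peaks of the 7 genes had another gained peak within 10 kb in 35 of 75 cases (46.7%, Wilson 95% interval 35.8 to 57.8%), against 22.2% of other gained peaks, a closeness that choosing genes by their number of peaks favours.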
